A study of Mus musculus with 12 samples.

Results

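The 9 Tmed genes described here (Tmed1, Tmed2, Tmed3, Tmed4, Tmed5, Tmed7, Tmed8, Tmed9 and Tmed10) belong to the TMED or p24 cargo receptor family of the mouse. They were chosen by name, with earlier results of these data known, so counts of members called are descriptions. Each symbol was matched to its Ensembl identifier in a count table of 46603 genes, and all 9 were among the 13167 genes with enough reads to be tested. The study asked how TMED proteins govern the surface level of the inhibitory receptor PD-1 on CD8 T cells, and whether blocking them alters T cell activity. RNA was sequenced from 12 libraries in 6 groups of 2.

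All groups held splenic OT-I/Cas9 CD8 T cells, whose single transgenic T cell receptor recognizes an ovalbumin peptide and which express the nuclease Cas9. All had been pre-activated through CD3 and CD28, transduced with a retrovirus carrying a guide RNA, selected with puromycin and grown in IL-2, IL-7 and IL-15, so the resting cells were expanded T cells kept off the antibody and not naive ones. The Tmed10 KO cells carried a guide against Tmed10 and received H2O. The AGN192403 groups carried the non-targeting guide Ctrl-2 and received AGN192403 at 100 µM, a small imidazoline receptor ligand that is also known to bind TMED9 protein. The control cells carried the same Ctrl-2 guide and received H2O as vehicle. Each of these conditions was sampled after 24 h on plate-bound CD3 antibody (activated, 2.5 µg/mL) and after 24 h without it (resting). The KO cells were a bulk edited population and not a clone, Tmed10 KO was not combined with AGN192403, and the labels do not state the sex or age of the mice or whether the 2 libraries of a group came from separate cultures or animals. The p-values below therefore measure the spread between these libraries, which may be technical.

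p24 proteins are small single-pass membrane proteins of the early secretory pathway. Their lumenal GOLD domain and coiled coil hold them in mixed complexes, and their short cytoplasmic tail recruits the COPII coat for export from the endoplasmic reticulum and the COPI coat for return from the Golgi. They sort proteins that carry a glycosylphosphatidylinositol (GPI) anchor, among other cargo, and loss of a partner is known to destabilize other p24 proteins. The members described here, apart from Tmed8, fall into the alpha (Tmed4, Tmed9), beta (Tmed2), gamma (Tmed1, Tmed3, Tmed5, Tmed7) and delta (Tmed10) subfamilies. Tmed8 encodes a more distant GOLD domain protein.

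The ends of the coding sequences are printed because in p24 proteins the tail they encode is the part that meets the coats. For Tmed8, the more distant member, no such tail is assumed, and its line is printed for completeness only. Each line gives the last 18 codons and the stop codon of the principal transcript, 5′ to 3′ on the coding strand, from the GENCODE M21 annotation of GRCm38. Capitals mark a pair of adjacent phenylalanine codons and a pair of adjacent lysine codons among the last 6 codons. Tails with such a phenylalanine pair are known to engage the coats, and a lysine pair close to the end is a known signal for COPI.
Tmed4: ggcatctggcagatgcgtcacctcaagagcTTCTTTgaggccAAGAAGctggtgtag
Tmed9: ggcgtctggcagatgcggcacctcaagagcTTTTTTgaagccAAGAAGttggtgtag
Tmed2: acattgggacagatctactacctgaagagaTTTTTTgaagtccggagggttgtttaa
Tmed1: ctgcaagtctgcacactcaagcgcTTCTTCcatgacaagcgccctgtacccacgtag
Tmed3: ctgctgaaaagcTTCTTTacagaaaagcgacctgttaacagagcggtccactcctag
Tmed5: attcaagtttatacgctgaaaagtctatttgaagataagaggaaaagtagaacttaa
Tmed10: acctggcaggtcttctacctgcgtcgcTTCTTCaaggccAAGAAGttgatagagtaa
Tmed8: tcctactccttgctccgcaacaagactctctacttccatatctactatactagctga
Of all 9 members, the lysine pair was found in 3: the alpha members Tmed4 and Tmed9, and the delta member Tmed10. The phenylalanine pair was found in 7 members, including Tmed7, whose sequence is not printed. Tmed5 and Tmed8 had neither pair as defined here.

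In GRCm38 coordinates, Tmed4 lies at chr11:6270369-6274870 on the minus strand, Tmed9 at chr13:55573732-55597697 on the plus strand and Tmed2 at chr5:124540695-124550506 on the plus strand. Tmed1 lies at chr9:21507553-21510252, Tmed3 at chr9:89699206-89705068 and Tmed5 at chr5:108106366-108132620, all on the minus strand. Tmed7 is on chromosome 18. Tmed8 lies at chr12:87166237-87200454 and Tmed10 at chr12:85340614-85374847, both on the minus strand. All 9 are protein-coding genes.

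Some reads of 3 members cannot be assigned with certainty. Of the 65-base stretches of the principal transcript (65 bases being the read length), 29.6% in Tmed10 also occur in the processed pseudogene Tmed10-ps, and 26.9% in Tmed2 occur in other genes, mostly the pseudogene Gm10698. In Tmed1, 10.7% occur in Dnm2, a gene that overlaps its end on the other strand. The value was 2.09% in Tmed5, which overlaps Mtf2, and 0 in Tmed3, Tmed4, Tmed7, Tmed8 and Tmed9. Tmed4, Tmed7, Tmed8 and Tmed10 also overlap another annotated gene.

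Library totals ran from 9089350 to 16481840 counts. Replicates differed by more than counting noise in every group, with a chi-square per degree of freedom of 1.13 to 3.86, so none was treated as a repeat of another. The defining markers of CD8 T cells were present. Cd8a stood at 632 to 780 CPM (read counts relative to library size, scaled with TMM factors) and Cd4 at 0.378 to 1.29 CPM. The B cell marker Ms4a1 had no read, but Cd79b, another B cell marker, stood at 0.9438 to 8.078 CPM. Summed levels of marker lists (T, B, NK, myeloid and stromal cells) whose libraries did not overlap between groups are given beside the comparisons of the knockout and of AGN192403. The CD8 T cell sums are mostly Gzmb (8460 to 20460 CPM), where no other gene of the list passed 965.4 CPM. Those of the CD4 T cell, NK, B cell and myeloid lists are mostly Zbtb7b, Eomes, Cd79b and Fcer1g, in this order. Zbtb7b stood at 32.56 to 67.58 CPM, Eomes at 81.9 to 172.8 CPM and Fcer1g at 1.47 to 10.99 CPM. The levels of Cd4 and Ms4a1 alone therefore do not show that other cell types were absent.

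Tmed10, the gene the guide targets, fell in the Tmed10 KO cells in both states. In activated cells it stood at 55.9 and 58.3 CPM in Tmed10 KO libraries, against 128 and 125 CPM in control libraries. In resting cells it stood at 61.5 and 65.1 CPM in Tmed10 KO libraries, against 116 and 117 CPM in control libraries. The KO and control libraries lay far apart in both states, and the mean in Tmed10 KO cells fell by 54.9% in activated cells and fell by 45.7% in resting cells. The log2 fold change was -1.15 ± 0.05 (SE, n = 2 per group, edgeR adjusted p = 6.85e-14) in activated and -0.89 ± 0.05 (adjusted p = 2.08e-11) in resting cells. An edited allele can still be transcribed and its reads counted, so these values do not measure the loss of protein, and in bulk RNA fewer cells with the transcript cannot be told apart from less transcript per cell.

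**Figure D1:**
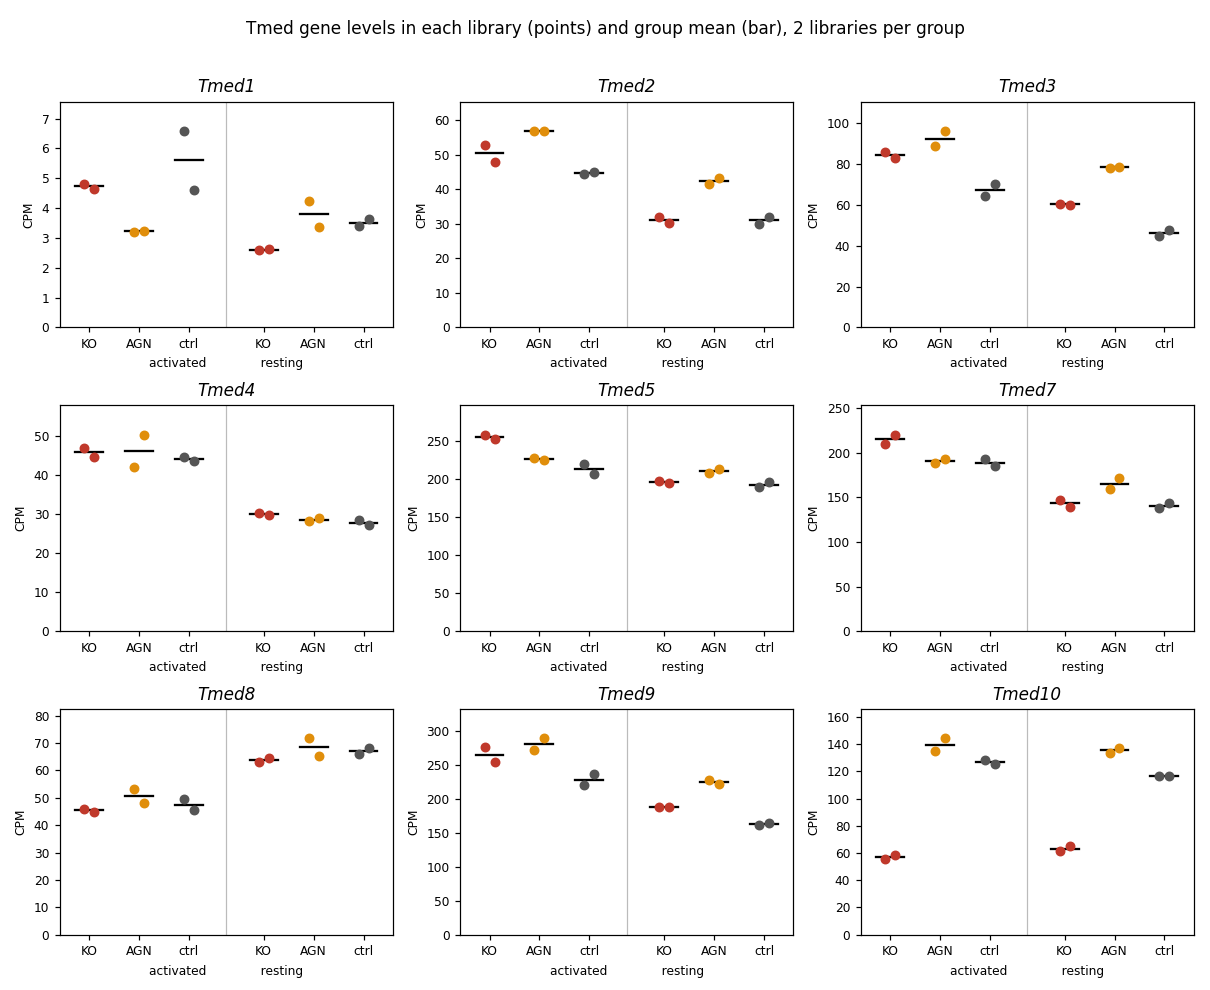
Level of each Tmed gene in CPM (y axis, from 0, own scale per gene) in the 12 libraries (points), with the group mean as a bar; Tmed10 KO, AGN192403 and control (ctrl) stand side by side for activated cells on the left and resting cells on the right. Tmed10 is low in the 4 Tmed10 KO libraries (55.9 to 65.1 CPM), and Tmed3 and Tmed9 are lowest in the resting control libraries (44.7 and 47.6, and 162 and 165 CPM).

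To set members side by side, CPM was divided by the length of the principal transcript in kb. Tmed9 was the most abundant member in all 6 groups, with 187 ± 11.6 CPM per kb in activated Tmed10 KO, 198 ± 8.42 in activated AGN192403 and 161 ± 8.05 in activated control cells (SD, n = 2). Tmed7 came next in all groups, with 160 ± 5.25, 142 ± 2.01 and 140 ± 4.34 CPM per kb in the same 3 groups. Tmed1 was the lowest member in every group, at 3.43, 2.34 and 4.06 CPM per kb. It had 24 to 79 reads per library, so its estimates are the least precise of the family.

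Tmed10 ranked 3 in AGN192403 and control cells and 5 in Tmed10 KO cells, in both states. In activated control cells the order was Tmed9, Tmed7, Tmed10, Tmed5, Tmed3, Tmed4, Tmed2, Tmed8 and Tmed1. Only the neighbours Tmed4 and Tmed2 had overlapping libraries there, as they did in both Tmed10 KO groups, and no neighbours overlapped in the AGN192403 or resting control groups. Which length is used matters for Tmed7: divided by the length of all annotated exons instead, a choice made after seeing the data, Tmed9 was still first, but Tmed7 ranked 4 to 6 and Tmed10 ranked 3 or 4 in AGN192403 and control cells and 7 in Tmed10 KO cells.

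Summed over the 9 members, the family reached 572 ± 10.5 CPM per kb in activated Tmed10 KO, 622 ± 21.1 in activated AGN192403 and 547 ± 1.56 in activated control cells. In resting cells the sums were 419 ± 2.83 in Tmed10 KO, 533 ± 6.40 in AGN192403 and 424 ± 8.13 in control cells. The loss of Tmed10 reads thus left a summed level whose libraries lay above control in activated cells and overlapped control in resting cells. Tmed10 made up 6.74% ± 0.326 of the sum in activated Tmed10 KO and 15.6% ± 0.294 in activated control cells, and 10.2% ± 0.470 in resting Tmed10 KO and 18.6% ± 0.300 in resting control cells. These sums and shares depend on the length used, and were computed with the principal transcript only. With the length of all annotated exons, activated control cells had 21.8 instead of 85.5 CPM per kb for Tmed10 and 66.3 instead of 160.6 for Tmed9.

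**Figure D2:**
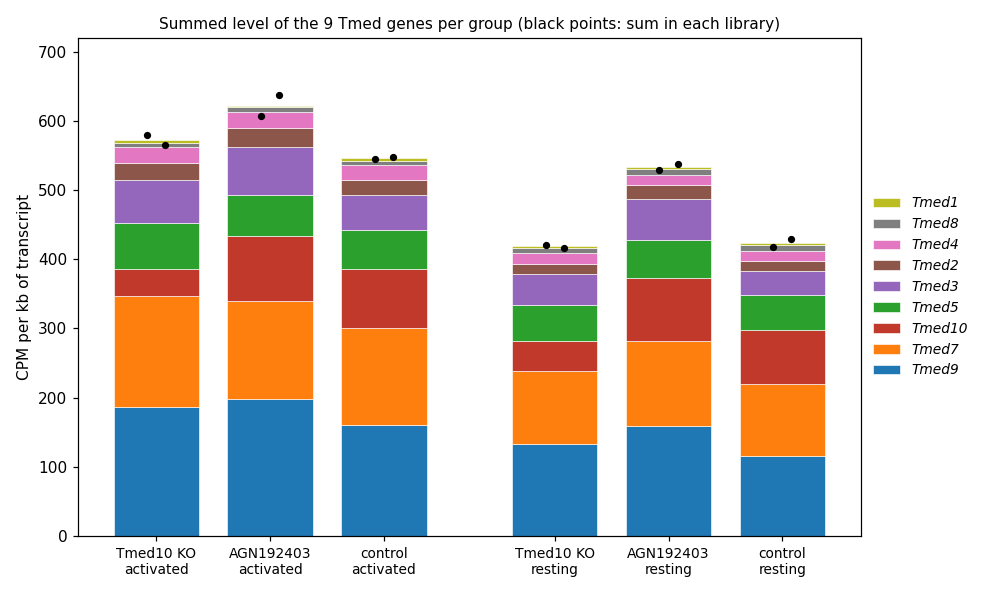
Summed level of the 9 Tmed genes in CPM per kb of principal transcript (y axis, from 0), stacked by gene as group means for Tmed10 KO, AGN192403 and control cells, activated on the left and resting on the right, with the sum of each library as a black point. The resting AGN192403 bar (533) nearly reaches the activated control bar (547), while the resting Tmed10 KO (419) and control (424) bars differ by less than the range of the control libraries (418 to 429).

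The comparison of Tmed10 KO with control asked what loss of one p24 gene does to the transcripts of the others. In activated cells 5 of the 8 other members rose and none fell by the test, where 19.6% of all tested genes were called (10.8% higher, 8.78% lower). The median log2 fold change of these 8 was 0.19, against 0.02 over all tested genes. The 5 were Tmed9 (alpha), Tmed2 (beta) and Tmed3, Tmed5 and Tmed7 (gamma). Beside them, the CD8 T cell markers, mostly Gzmb, summed to 21280 to 22320 CPM in activated Tmed10 KO and 23060 to 24070 CPM in activated control libraries. The CD4 T cell markers, mostly Zbtb7b, summed to 52.8 to 59.2 and 40.5 to 45.5 CPM. The NK markers, mostly Eomes, summed to 101 to 105.5 and 81.9 to 82.3 CPM. The myeloid markers summed to 2.54 to 2.91 and 2.00 to 2.52 CPM, and the stromal markers to 1.18 to 1.73 and 0.583 to 0.755 CPM. Their part in the result was not tested.

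Among the gamma genes, Tmed3 stood at 85.8 and 82.9 CPM in activated Tmed10 KO libraries, against 64.6 and 70.6 CPM in control libraries (log2 fold change 0.32 ± 0.06, adjusted p = 0.000148). Tmed5 stood at 258 and 253 CPM in Tmed10 KO, against 219 and 206 CPM in control libraries (0.27 ± 0.04, adjusted p = 4.3e-05). Both calls held under every alternative fit tried. Tmed7 stood at 210.5 and 220.5 CPM in Tmed10 KO, against 193 and 185 CPM in control libraries (0.19 ± 0.05, adjusted p = 0.00484), and its call was lost without control replicate 2 (0.15, adjusted p = 0.0961) or without KO replicate 2 (0.15, adjusted p = 0.0862).

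Tmed9, the most abundant alpha gene, stood at 277 and 254 CPM in activated Tmed10 KO libraries, against 220 and 236 CPM in control libraries (0.22 ± 0.05, adjusted p = 0.00115). Without KO replicate 1 the Tmed9 call was lost (0.15). The beta gene Tmed2 stood at 52.9 and 48.0 CPM in Tmed10 KO, against 44.3 and 45.1 CPM in control libraries (0.19 ± 0.06, adjusted p = 0.0399). This call was the weakest: it was lost in 7 of 11 alternative fits, with DESeq2 (0.17, adjusted p = 0.348), without control replicate 1 (0.18, 0.186) or 2 (0.19, 0.120), and without KO replicate 1 (0.10, 0.519) among them. Tmed1 (-0.24 ± 0.19), Tmed4 (0.06 ± 0.07) and Tmed8 (-0.06 ± 0.07) did not pass the test, with 95% intervals of -0.62 to 0.15, -0.09 to 0.21 and -0.20 to 0.08.

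In resting cells 2 of the 8 other members rose and none fell by the test, where 7.44% of all tested genes were called (2.81% higher, 4.63% lower), and the median log2 fold change of the 8 was 0.03, against 0.00 over all tested genes. The CD8 T cell markers, mostly Gzmb, summed to 12810 to 12880 CPM in resting Tmed10 KO and 13680 to 14110 CPM in resting control libraries. The B cell markers, mostly Cd79b, summed to 7.34 to 8.08 and 6.09 to 7.11 CPM. The myeloid markers, mostly Fcer1g, summed to 12.5 to 13.2 and 11.2 to 12.3 CPM. The part of these lists in the result was not tested. Tmed3 stood at 60.6 and 60.1 CPM in resting Tmed10 KO libraries, against 44.7 and 47.6 CPM in control libraries (0.38 ± 0.06, adjusted p = 0.000311). Tmed9 stood at 188 and 189 CPM in Tmed10 KO, against 162 and 165 CPM in control libraries (0.20 ± 0.05, adjusted p = 0.0114). Neither pair of groups overlapped, but nor did the libraries of Tmed1, Tmed4 and Tmed8, which did not pass the test. The share of all tested genes without overlap was not counted, so overlap is not used as support. The Tmed9 call was lost without control replicate 1 (0.19, adjusted p = 0.107) or without KO replicate 1 (0.24, adjusted p = 0.0583), while that of Tmed3 held throughout.

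Tmed2, Tmed5 and Tmed7, called in activated cells, had log2 differences of 0.01 ± 0.08, 0.03 ± 0.04 and 0.03 ± 0.05 in resting cells. Tmed1 had 2.59 and 2.62 CPM in resting Tmed10 KO, against 3.40 and 3.63 CPM in control libraries, which did not overlap but rested on 24 to 48 reads and did not pass the test (-0.44 ± 0.24, adjusted p = 0.313). Tmed4 (0.12 ± 0.09) and Tmed8 (-0.08 ± 0.06) did not pass either.

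AGN192403 was given to cells without the Tmed10 edit, to ask whether the compound has the functional effects of losing Tmed10. Its comparison uses the same control libraries as the knockout, so the values are set side by side and no overlap between them is drawn. In resting cells 6 of 9 members rose and none fell by the test, where 25.4% of all tested genes were called (11.6% higher, 13.7% lower). The median log2 fold change of the 9 was 0.22, against -0.01 over all tested genes. Tmed10 itself was among those higher. The CD8 T cell markers summed to 12370 to 12530 CPM in resting AGN192403 and 13680 to 14110 CPM in resting vehicle libraries, the CD4 T cell markers to 57.0 to 57.49 and 57.50 to 63.5 CPM, and the NK markers to 128.5 to 137 and 162.5 to 173.5 CPM. The B cell markers summed to 4.79 to 5.18 and 6.09 to 7.11 CPM and the stromal markers to 5.08 to 5.81 and 6.05 to 6.69 CPM, and the part of these lists in the result was not tested.

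The largest rise of the family in any comparison with the compound or the knockout was that of Tmed3, a gamma gene. It stood at 78.0 and 78.9 CPM in resting AGN192403 libraries, against 44.7 and 47.6 CPM in resting vehicle libraries (log2 fold change 0.76 ± 0.06, adjusted p = 8.85e-10). The ratio of the means was 1.70. Tmed9 stood at 228 and 222 CPM with AGN192403, against 162 and 165 CPM with vehicle (0.46 ± 0.05, adjusted p = 1.01e-07).

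Tmed2 stood at 41.6 and 43.3 CPM with AGN192403, against 30.1 and 32.1 CPM with vehicle (0.45 ± 0.07, adjusted p = 3.6e-05). These 3 genes kept their calls under every alternative fit tried. Tmed10 stood at 133.5 and 137.5 CPM with AGN192403, against 116 and 117 CPM with vehicle (0.22 ± 0.05, adjusted p = 0.00123), a call that also held throughout. With the compound, the Tmed10 transcript was thus higher than with vehicle.

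Tmed7 rose by 0.23 ± 0.05 (adjusted p = 0.000825), but not without AGN192403 replicate 2 (0.18, adjusted p = 0.0633). Tmed5 rose by 0.13 ± 0.04 (adjusted p = 0.0264), a call lost without vehicle replicate 1 (0.11, 0.188) and without AGN192403 replicate 1 (0.15, 0.0635) or 2 (0.11, 0.221), as well as with DESeq2 (0.12, 0.145). Tmed1 (0.08 ± 0.22), Tmed4 (0.04 ± 0.09) and Tmed8 (0.02 ± 0.06) did not pass, with 95% intervals of -0.38 to 0.53, -0.14 to 0.22 and -0.11 to 0.15.

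In activated cells AGN192403 came with 4 members higher and 1 lower, where 34.7% of all tested genes were called (16.4% higher, 18.3% lower). The median log2 fold change of the 9 was 0.09, against -0.01 over all tested genes. The CD8 T cell markers summed to 16160 to 17460 CPM in activated AGN192403 libraries and 23060 to 24070 CPM in activated vehicle libraries, mostly Gzmb, the CD4 T cell markers to 72.2 to 74.8 and 40.5 to 45.5 CPM, and the NK markers to 109 to 116 and 81.9 to 82.3 CPM. The B cell markers summed to 0.944 to 1.10 and 1.43 to 1.83 CPM, the myeloid markers to 1.84 to 1.89 and 2.00 to 2.52 CPM and the stromal markers to 1.25 to 1.70 and 0.583 to 0.755 CPM, and their part in the result was not tested. Tmed3 stood at 88.7 and 96.3 CPM with AGN192403, against 64.6 and 70.6 CPM with vehicle (0.46 ± 0.06, adjusted p = 3.92e-07). Tmed2 stood at 56.91 and 56.89 CPM with AGN192403, against 44.3 and 45.1 CPM with vehicle (0.35 ± 0.06, adjusted p = 9.59e-05). Tmed9 stood at 272.5 and 289 CPM with AGN192403, against 220 and 236 CPM with vehicle (0.30 ± 0.05, adjusted p = 1.34e-05). The calls of these 3 genes held under every alternative fit tried.

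Tmed10 stood at 135 and 144 CPM in activated AGN192403 libraries, against 128 and 125 CPM in vehicle libraries (0.14 ± 0.05, adjusted p = 0.018). That call was lost with no expression filter (0.14, 0.0571), with DESeq2 (0.14, 0.127), without vehicle replicate 2 (0.15, 0.0623) and without AGN192403 replicate 2 (0.09, 0.217). Tmed1 was the single member that fell. It stood at 3.21 and 3.23 CPM with AGN192403, against 6.58 and 4.62 CPM with vehicle (-0.80 ± 0.20, adjusted p = 0.00332), from 34 to 79 reads per library, and without vehicle replicate 1 the call was lost (-0.52, adjusted p = 0.125), as it was with DESeq2 (-0.80, 0.0507).

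Tmed4 stood at 42.1 and 50.4 CPM in activated AGN192403 libraries, on both sides of the 44.6 and 43.6 CPM of the vehicle libraries. It did not pass the test (0.08 ± 0.07), although it did without AGN192403 replicate 1 (0.20, adjusted p = 0.035). Tmed5 (0.09 ± 0.04), Tmed7 (0.01 ± 0.05) and Tmed8 (0.09 ± 0.07) did not pass.

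**Figure D3:**
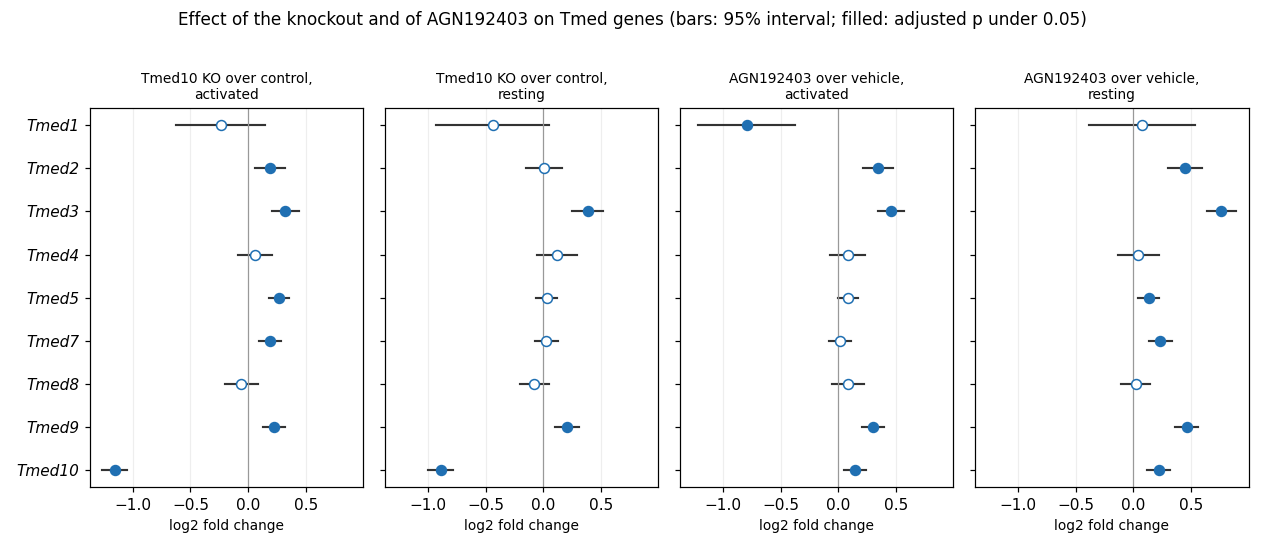
Log2 fold change (x axis) of each Tmed gene (rows) for Tmed10 KO over control and for AGN192403 over vehicle, in activated and resting cells, with 95% intervals as bars and filled points where the edgeR adjusted p was under 0.05. Tmed3 and Tmed9 lie to the right of 0 in all 4 panels, Tmed10 is far to the left in the knockout panels only (-1.15 and -0.89), and Tmed4 and Tmed8 are open points throughout.

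Set against each other, Tmed10 KO and AGN192403 cells differed in Tmed10 and in 4 other members in resting and 2 in activated cells. In resting cells 5 members were lower in Tmed10 KO than in AGN192403 cells and none was higher, where 16.6% of all tested genes were called (8.83% higher, 7.78% lower). They were Tmed10 (-1.11 ± 0.05), Tmed2 (-0.44 ± 0.07), Tmed3 (-0.38 ± 0.06), Tmed9 (-0.26 ± 0.05) and Tmed7 (-0.21 ± 0.05), with adjusted p-values of 2.34e-13, 5.86e-05, 4.11e-05, 0.000443 and 0.00384. The Tmed7 call was lost without AGN192403 replicate 2 (-0.12, 0.283) or KO replicate 2 (-0.14, 0.154). In Tmed10 KO and AGN192403 libraries, the CD8 T cell markers summed to 12810 to 12880 and 12370 to 12530 CPM, the CD4 T cell markers to 57.7 to 58.0 and 57.0 to 57.5 CPM, the B cell markers to 7.34 to 8.08 and 4.79 to 5.18 CPM, and the NK markers to 158 to 164 and 128.5 to 137 CPM, and their part in the result was not tested.

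In activated cells 1 member, Tmed10, was lower in Tmed10 KO than in AGN192403 cells (-1.30 ± 0.05, adjusted p = 1.4e-14), and Tmed5 (0.18 ± 0.04, adjusted p = 0.00302) and Tmed7 (0.17 ± 0.05, adjusted p = 0.00906) were higher, where 20.3% of all tested genes were called (13.0% higher, 7.34% lower). The Tmed5 call was lost without KO replicate 1 (0.13, 0.124). That of Tmed7 was lost with library totals (0.12, 0.0608) and when fitted on the libraries of the contrast alone (0.14, 0.0610). It was also lost without AGN192403 replicate 1 (0.14) and without KO replicate 1 (0.18) or 2 (0.11). Without KO replicate 1, Tmed2 (-0.27, 0.0275) and Tmed9 (-0.18, 0.0415) were called lower, and Tmed3 was without AGN192403 replicate 1 (-0.20, 0.0185). In Tmed10 KO and AGN192403 libraries, the CD8 T cell markers summed to 21280 to 22320 and 16160 to 17460 CPM, the CD4 T cell markers to 52.8 to 59.2 and 72.2 to 74.8 CPM, the B cell markers to 1.55 to 2.37 and 0.944 to 1.10 CPM, the myeloid markers to 2.54 to 2.91 and 1.84 to 1.89 CPM, and the NK markers to 101 to 105.5 and 109 to 116 CPM, and their part in the result was not tested.

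Activation through CD3 moved every member in control cells: 8 rose and Tmed8 fell. These counts stand against a background in which 73.8% of all tested genes were called (36.4% higher, 37.4% lower), and the median log2 fold change of the 9 was 0.48, against -0.02 over all tested genes. Taken without sign, the median change over all tested genes was 0.569, so changes of this size were common. DESeq2 called 7 of the 9 members and 8520 of 13167 genes in this comparison. Most marker lists of other cell types moved with activation too. The 5 B cell markers summed to 0.944 to 2.37 CPM in activated and 4.79 to 8.08 CPM in resting libraries, nearly all of it Cd79b, and the 6 myeloid markers to 1.84 to 2.91 and 11.2 to 13.2 CPM. The 4 stromal and epithelial markers summed to 0.583 to 1.73 and 5.08 to 6.91 CPM, the 3 NK markers, mostly Eomes, to 81.9 to 116 and 128.5 to 173.5 CPM, and the 4 CD4 T cell markers, mostly Zbtb7b, to 40.5 to 74.8 and 57.0 to 63.5 CPM. Their part in the activation results was not tested.

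The alpha gene Tmed4 rose in control cells, with 44.6 and 43.6 CPM in activated, against 28.6 and 27.1 CPM in resting libraries (0.67 ± 0.08, adjusted p = 5.05e-08). Tmed4, which passed no test of the knockout or the compound, also rose with activation by 0.61 ± 0.08 in Tmed10 KO and by 0.70 ± 0.08 in AGN192403 cells. Tmed9 rose by 0.48 ± 0.05, Tmed2 by 0.52 ± 0.07, Tmed3 by 0.55 ± 0.06 and Tmed7 by 0.42 ± 0.05 in control cells.

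Tmed8, the distant family member, ran the other way. It stood at 49.6 and 45.4 CPM in activated control libraries, against 65.8 and 68.1 CPM in resting control libraries (-0.50 ± 0.06, adjusted p = 2.01e-07). It also fell in Tmed10 KO cells (-0.48 ± 0.06) and in AGN192403 cells (-0.43 ± 0.06).

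The other rises in control cells were less firm. Tmed1 rose by 0.66 ± 0.20 (adjusted p = 0.00491), lost with DESeq2 (0.68, 0.0520) and without activated replicate 1 (0.39, 0.167). Tmed5 rose by 0.14 ± 0.04 (0.00426), lost without resting replicate 1 (0.12, 0.0533) or activated replicate 1 (0.10, 0.0906). Tmed10 rose by 0.12 ± 0.05 (0.0282), lost with library totals (0.10, 0.0599) and with DESeq2 (0.13, 0.0829). It was also lost without resting replicate 1 (0.11) or 2 (0.12) and without activated replicate 1 (0.10).

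In Tmed10 KO cells activation raised 7 members and lowered 2, where 73.7% of all tested genes were called (37.2% higher, 36.5% lower). Tmed8 fell as above. The residual Tmed10 transcript stood at 55.9 and 58.3 CPM in activated, against 61.5 and 65.1 CPM in resting Tmed10 KO libraries (-0.15 ± 0.06, adjusted p = 0.0256). This call was lost with no expression filter (-0.07, 0.475), with DESeq2 (-0.16, 0.0706), without resting replicate 2 (-0.14, 0.0705) and without activated replicate 1 (-0.13, 0.122). The others ran between Tmed5 (0.38 ± 0.04) and Tmed1 (0.86 ± 0.22), and all 7 held under every alternative fit tried.

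With AGN192403, activation raised 6 members and lowered Tmed8, where 70.0% of all tested genes were called (33.9% higher, 36.1% lower), and the median log2 fold change of the 9 was 0.20, against -0.01 over all tested genes. Taken without sign, the median change over all tested genes was 0.493 there. Tmed3 rose by 0.24 ± 0.06 (adjusted p = 0.000409), Tmed7 by 0.20 ± 0.05 (0.000469), Tmed9 by 0.32 ± 0.05 (1.42e-06) and Tmed2 by 0.42 ± 0.06 (2.69e-06). Tmed5 rose by 0.10 ± 0.04 (0.0399). That call was lost with no expression filter (0.11, 0.0747), with library totals (0.09, 0.0682), and without resting replicate 1 (0.12) or activated replicate 2 (0.10). Tmed1 (-0.21 ± 0.23) and Tmed10 (0.04 ± 0.05) did not pass.

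**Figure D4:**
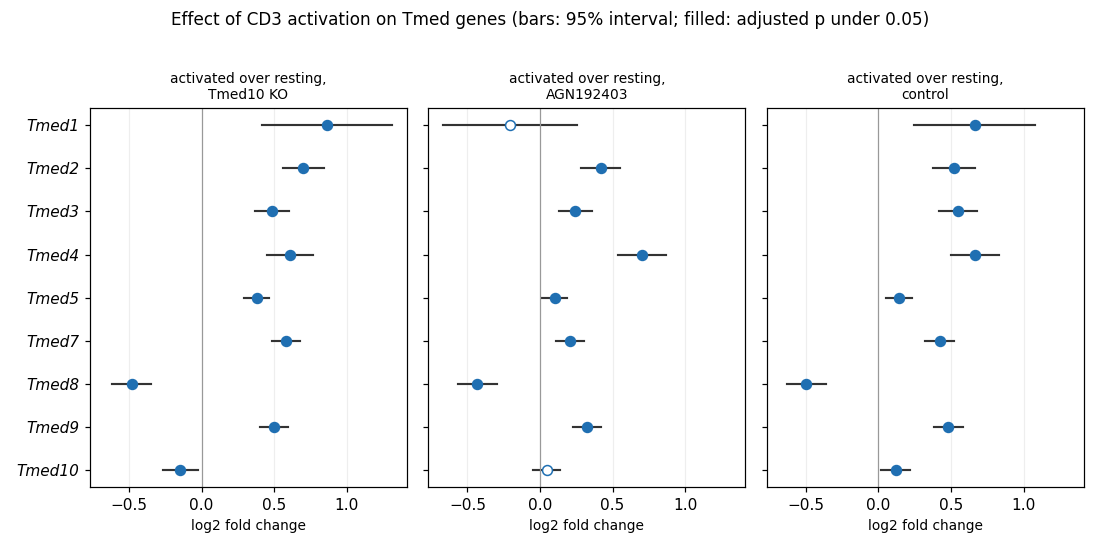
Log2 fold change (x axis) of each Tmed gene (rows) for activated over resting cells in Tmed10 KO, AGN192403-treated and control cells, with 95% intervals as bars and filled points where the edgeR adjusted p was under 0.05. Tmed4 is far to the right (0.61, 0.70 and 0.67) and Tmed8 to the left (-0.48, -0.43 and -0.50) in all 3 panels, while Tmed10 sits close to 0.

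Whether these activation responses differed was tested as an interaction. Between Tmed10 KO and control cells 2 of 9 members differed, where 4.96% of all tested genes were called (3.07% higher, 1.89% lower): Tmed5 rose more in Tmed10 KO cells (difference 0.24 ± 0.06, adjusted p = 0.0197), and Tmed10 had a difference of -0.27 ± 0.07 (adjusted p = 0.037), falling in Tmed10 KO and rising in control cells. Neither difference was called with DESeq2 (adjusted p = 0.128 and 0.122), and leaving out single libraries ended both calls, as the closing section lists. Between AGN192403 and vehicle cells 3 of 9 differed, where 19.7% of all tested genes were called (8.62% higher, 11.1% lower), all with a negative difference. They were Tmed1 (-0.87 ± 0.30, adjusted p = 0.0441), Tmed3 (-0.30 ± 0.08, adjusted p = 0.0108) and Tmed7 (-0.22 ± 0.07, adjusted p = 0.0234), and none was called with DESeq2, which gave no adjusted p for Tmed1. Tmed2, Tmed4, Tmed8 and Tmed9 passed neither interaction test.

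The machinery around p24 proteins was read through gene lists, for which the medians over all genes given above apply. These lists, too, were chosen with earlier results of these data known. With the knockout, 10.8% of all tested genes were higher and 8.78% lower in activated cells, and 2.81% and 4.63% in resting cells. With AGN192403 the shares were 16.4% higher and 18.3% lower in activated cells, and 11.6% and 13.7% in resting cells. The p24 tails recruit the COPI coat on the way back to the endoplasmic reticulum. The COPI list, which also holds genes of the Arf switch of the coat such as Arf1 and Gbf1, had 13 of 17 tested genes higher and none lower in activated Tmed10 KO against control cells (median log2 fold change 0.28), and 11 of 17 higher in resting cells (0.23). With AGN192403, 14 of 17 were higher in activated (0.50) and 14 of 17 in resting cells (0.79), none lower. Copz2, a zeta subunit, had the largest rise in each of these comparisons: 1.45 ± 0.30 and 1.27 ± 0.40 with the knockout, and 1.78 ± 0.29 and 2.02 ± 0.36 with AGN192403, for activated and resting cells in turn. In resting Tmed10 KO cells its call was at the threshold (adjusted p = 0.0499). Copb2, a beta-prime subunit that binds dilysine tails, rose by 0.50 ± 0.04 and 0.43 ± 0.04 with the knockout and by 0.83 ± 0.04 and 1.24 ± 0.04 with AGN192403.

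The COPII coat and its activators, which export cargo from the endoplasmic reticulum, had 7 of 14 tested genes higher in activated (median 0.15) and 5 of 14 in resting Tmed10 KO cells (0.10), and 10 of 14 in activated (0.42) and 11 of 14 in resting AGN192403 cells (0.31). None was called lower in these 4 comparisons, where 10.8%, 2.81%, 16.4% and 11.6% of all tested genes were called higher, in this order. Sec23a and Sec24d, which form the inner coat and bind cargo, rose by 0.68 ± 0.05 and 0.82 ± 0.06 in activated Tmed10 KO cells and by 1.21 ± 0.05 and 1.24 ± 0.05 in activated AGN192403 cells. In resting cells the largest rises were those of Sec23a (0.64 ± 0.06) and Sec24d (0.47 ± 0.07) with the knockout and of Sec23a (1.55 ± 0.06) and Sec13 (1.16 ± 0.05), an outer coat subunit, with AGN192403.

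Of the other cargo receptors, 9 of 15 tested were higher in activated (median 0.24) and 4 of 15 in resting Tmed10 KO cells (0.06), none lower. The shares of all tested genes called higher there were 10.8% and 2.81%. With AGN192403, 9 of 15 were higher and Cnih4 lower (-0.30 ± 0.09) in activated cells (median 0.20). In resting cells 8 of 15 were higher and Bcap31 lower (-0.22 ± 0.05, median 0.19). Among all tested genes 16.4% were higher and 18.3% lower in activated, and 11.6% and 13.7% in resting AGN192403 cells. Kdelr3, a receptor that returns escaped chaperones to the endoplasmic reticulum, rose by 1.70 ± 0.15 and 1.53 ± 0.22 with the knockout and by 2.23 ± 0.14 and 2.44 ± 0.20 with AGN192403, in activated and resting cells in turn. Its relative Kdelr2 rose by 0.46 ± 0.05 and 0.44 ± 0.06 with the knockout and by 0.69 ± 0.05 and 1.14 ± 0.05 with AGN192403. The family's own rises, at most 0.38 with the knockout and 0.76 with AGN192403, were thus smaller than those of the leading coat and receptor genes. By medians the order was mixed. In activated Tmed10 KO cells the median of the members without Tmed10 was 0.19, against 0.28 for the COPI list, 0.15 for the COPII list and 0.24 for the receptors. In resting AGN192403 cells that of all members was 0.22, against 0.79, 0.31 and 0.19. In the remaining comparisons every list median was above that of the members.

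The next list holds the genes that build, attach and trim GPI anchors. In activated Tmed10 KO cells 2 of 28 tested were higher, Pigc (0.28 ± 0.10) and Pigt (0.15 ± 0.05), and none was lower, while DESeq2 called 0 of 28. In resting Tmed10 KO cells edgeR called 0 of 28, with 3 at an unadjusted p under 0.05, and DESeq2 called 0. With AGN192403, 6 were higher and 3 lower in activated cells, with Pigh (0.44 ± 0.13) and Pgap1 (0.41 ± 0.16) up and Pigz (-2.29 ± 0.51) and Piga (-0.23 ± 0.07) down as the extremes, and 3 were higher and 2 lower in resting cells, with Pgap3 (0.31 ± 0.10) and Pigk (0.28 ± 0.06) up and Piga (-0.27 ± 0.06) and Pigu (-0.23 ± 0.07) down. DESeq2 called 2 of 28 in activated cells, against 9 by edgeR, and 2 in resting cells, against 5 by edgeR. Over all tested genes edgeR called 19.6% and 7.44% with the knockout and 34.7% and 25.4% with AGN192403, activated before resting. The list was called no more often than that in any of these comparisons. The medians of the 28 lay between -0.01 and 0.06 in these 4 comparisons.

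Transcripts of GPI-anchored surface proteins, a class of p24 cargo, moved in both directions. In activated Tmed10 KO cells 2 of 15 tested were higher, Nt5e (1.10 ± 0.15), which encodes the ectonucleotidase CD73, and Cd24a (0.97 ± 0.18), and Ly6c2 was lower (-0.35 ± 0.08). These 3 of 15 were near the share of all tested genes called there, 19.6%. In resting Tmed10 KO cells Nt5e was higher (0.46 ± 0.06) and 4 were lower, led by Sema7a (-0.61 ± 0.09), a semaphorin, and Cd55 (-0.47 ± 0.09), a complement regulator. With AGN192403, 2 were higher and 9 lower in activated cells, led by Cd24a (0.86 ± 0.19) and Nt5e (0.81 ± 0.16) upward and by Bst1 (-1.89 ± 0.32) and Plaur (-0.67 ± 0.16) downward, and 8 were lower and none higher in resting cells, led by Sema7a (-0.85 ± 0.09) and Cd55 (-0.44 ± 0.10). The share of all tested genes called was 7.44% in resting Tmed10 KO, 34.7% in activated AGN192403 and 25.4% in resting AGN192403 cells. The medians of the 15 were 0.01, -0.13, -0.31 and -0.21 in this order, against 0.02, 0.00, -0.01 and -0.01 over all tested genes.

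Over the 12 libraries, members resembled each other to different degrees, given here as Pearson r of log2 CPM without a test, since the libraries fall in 6 groups of 2 and share their normalization. Tmed9 followed Tmed3 (0.97) and Tmed2 (0.96), Tmed5 followed Tmed7 (0.93), and Tmed4 was opposite to Tmed8 (-0.96). Tmed10, the target of the guide, had values of -0.30 to 0.21 with the other 8. The tested genes most like Tmed2 were Sec23ip, which encodes a binding partner of COPII, Cars and Ap3m1 (0.99 each). Those most like Tmed9 were Aldh18a1, Aamp and Cdc16 (0.99 each), and those most like Tmed10 were Herc2 (0.90), Zfp619 (0.88) and Son (0.87). These genes outside the family thus came closer to Tmed2, Tmed9 and Tmed10 than any member did, so high values were not particular to the family.

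The other 2 family genes in the table were nearly silent. Tmed6 had 13 reads over the 12 libraries, at most 3 in one, and Tmed11 had none, so neither was tested.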

How the data were processed

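By the study's methods, poly(A) RNA was sequenced as 65-base single reads with a stranded kit. Per the labels, the authors aligned reads with STAR 2.6.0c to GRCm38 (mm10) and counted with HTSeq, and they deposited raw whole-number counts per gene. The study's methods name another STAR version, and the strand setting of the counting is not given in the sources used here, so reads of antisense partners may mix. Symbols, coordinates and transcript lengths came from GENCODE M21, which matched 46091 of 46603 identifiers (those unmatched held 0.0709% of counts).

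Counts were filtered with filterByExpr (13167 genes kept, 99.9% of counts), scaled with TMM and fitted with edgeR 4.0.16 (quasi-likelihood, R 4.3.3) over all 12 libraries and 6 groups, with Benjamini-Hochberg adjustment over the tested genes and a threshold of 0.05. The standard error is the log2 fold change divided by the root of F. CPM used TMM-scaled totals, and log2 CPM a prior count of 2. The methods used DESeq2, which was run here as an alternative (1.42.0), beside other filters and scalings, fits of the contrast's libraries alone, a replicate block and leaving out each library with the spread pooled. In the last, a lone library was assumed to vary like the other groups. The 9 members were all named in each comparison. From each pathway list the 2 called genes with the largest rise and the 2 with the largest fall were named, and for Tmed2, Tmed9 and Tmed10 the 3 genes with the highest r. Members and lists were chosen with earlier results of these data known. Of the lists, Pigy and Folr4 had no match in the table.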

Additional observations from a re-analysis of the deposited data

Results flagged for a closer look

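In 5 cases the response of a member to activation differed between conditions by the interaction test of edgeR. Between Tmed10 KO and control cells, the differences in log2 fold change were 0.24 for Tmed5 (adjusted p = 0.0197, with activated above resting libraries in both conditions) and -0.27 for Tmed10 (adjusted p = 0.037, with activated below resting libraries in Tmed10 KO and above them in control cells). Between AGN192403 and vehicle cells, they were -0.87 for Tmed1 (adjusted p = 0.0441), -0.30 for Tmed3 (adjusted p = 0.0108) and -0.22 for Tmed7 (adjusted p = 0.0234). Tmed3 and Tmed7 rose in both of these conditions, and Tmed1 rose in vehicle cells. Groups of 2 libraries could not be searched for outlying samples.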

How the results depend on the processing

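The count of members called stayed within 1.5 times its value under every alternative, except as follows. With DESeq2 it was 3 for AGN192403 in activated cells and 0 for both interactions. For Tmed10 KO minus control activation it was 1 with no expression filter, and 0 to 1 when single libraries were left out. For AGN192403 minus vehicle activation it was 1 when fitted on the libraries of the contrast alone, and 0 to 3 when single libraries were left out. For activated Tmed10 KO against AGN192403 it was 5 with a filter of at least 5 CPM in 2 libraries and 5 with library totals.

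In the first interaction, the Tmed5 call was lost without any one of the 4 KO libraries, without control resting replicate 2 or without control activated replicate 2 (0.16 to 0.22, adjusted p 0.102 to 0.281), and that of Tmed10 without control resting replicate 1 or 2, control activated replicate 1, KO resting replicate 2 or KO activated replicate 1 (-0.27 to -0.25, adjusted p 0.0885 to 0.129). In the second, that of Tmed3 was lost without vehicle resting replicate 1, AGN192403 resting replicate 2, vehicle activated replicate 2 or AGN192403 activated replicate 1 (-0.28 to -0.22), and that of Tmed7 without vehicle replicate 1 in either state, AGN192403 resting replicate 2 or AGN192403 activated replicate 1 (-0.19 to -0.14). That of Tmed1 was lost without every library of the contrast but vehicle activated replicate 2. Tmed9 gained a call without AGN192403 activated replicate 2 (-0.20, adjusted p = 0.0328).

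Values changed sign in 30 fits, none of them past the threshold before or after. For the Tmed10 KO minus control interaction, Tmed8 and Tmed9 were -0.0073 and -0.0046 with median-ratio size factors, -0.0051 and -0.0026 with library totals, and -0.011 and -0.0061 with DESeq2, and leaving out single libraries gave -0.083 to 0.083 for Tmed8, -0.085 to 0.041 for Tmed9 and -0.068 to 0.48 for Tmed1. For Tmed10 KO against AGN192403 in activated cells, Tmed4 was 0.019 with no filter and -0.15 to 0.13 with single libraries left out. Left-out libraries also gave -0.48 to 0.042 for Tmed1 and -0.13 to 0.0077 for Tmed8 in activated Tmed10 KO, -0.034 to 0.074 for Tmed2 and -0.0019 to 0.092 for Tmed7 in resting Tmed10 KO, -0.064 to 0.20 for Tmed4 in activated AGN192403, -0.071 to 0.26 for Tmed1 and -0.042 to 0.099 for Tmed8 in resting AGN192403 cells, -0.0089 to 0.11 for Tmed10 activation with AGN192403, and -0.11 to 0.16 for Tmed4 in the AGN192403 interaction. The causes were not tested.

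Same-numbered libraries share only a number in the labels, and were not treated as pairs. The correlation of their deviations ran from -0.0051 to 0.24 over 15 pairs of groups, and the 3 values over 0.1 were those among activated AGN192403, activated control and resting control cells (0.213, 0.239 and 0.189). With a replicate block the counts of members called were the same in all 11 contrasts, while over all genes 2993 against 2583 were called in activated and 1398 against 979 in resting Tmed10 KO cells. With DESeq2, 1430 and 380 were called there. DESeq2 also called 3031 against 4570 genes for AGN192403 in activated and 1935 against 3341 in resting cells, 312 against 653 and 1491 against 2592 for the Tmed10 KO and AGN192403 interactions, and 1525 against 2673 in activated and 1297 against 2186 in resting cells for Tmed10 KO against AGN192403. With 2 libraries a group and 24 to 79 reads for Tmed1, differences of that gene smaller than its intervals were not detectable at this depth.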

Other observations

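Promoter sequences from RefSeq around the gene start matched 7 of the 9 members, all but Tmed2 and Tmed7. On both strands, 4 elements known from stress responses of the endoplasmic reticulum and of amino acid supply were searched: the elements named ERSE and ERSE-II, the unfolded protein response element TGACGTGG and the CARE sequence TTGCATCA. None of the 7 promoters held any of them, and only 0.137%, 0.0444%, 0.714% and 1.03% of 27025 genes did. Elements this rare are hardly to be met in 7 promoters, so finding none says nothing about the family. The shorter strings CCAAT and CCACG, which are parts of ERSE, were found in 5 and 6 of the 7, against 41.1% and 35.5% of all genes. These are matches of letters in a fixed window and nothing more.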
